A study of Homo sapiens with 4 samples.

Results

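The MEF2 family was examined through MEF2A, MEF2C and MEF2D, 3 of the 20037 protein-coding genes placed on chromosomes in the RefSeq annotation of GRCh38.p14, the build of hg38. The genes were chosen by name, with earlier results of these data known. For each, H3K27Ac peaks were counted over the gene body with 5 kb, and then with 100 kb, on both sides, and each annotated promoter of MEF2C was taken apart. H3K27Ac marks active promoters and enhancers by acetylation of a histone H3 lysine. It was profiled by ChIPmentation, where sequencing adapters are inserted into immunoprecipitated DNA by the Tn5 transposase. The cells were MOLM13, a human AML line with MLL1-r. Controls gave 1 library, and cells exposed for 16 h to 500 nM of SNDX-50469 gave another. SNDX-50469 is an inhibitor of the binding of Menin to MLL1. The control library carries no treatment in its sample label, while the protocol names DMSO. There was no other library of either condition, so no difference has a replicate check and no p-value is given.

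MEF2 proteins are transcription factors of the MADS-box family that bind an A/T-rich DNA element as dimers. Class IIa histone deacetylases hold them in a repressing state, and phosphorylation by kinases such as p38 and calcium signals turn them into activators. They are best known from muscle, heart and neurons, and they also act in lymphoid and myeloid cells. MEF2C is an established target gene of MLL fusion proteins (MLL-FP) in AML, MEF2D is a partner in fusion genes of B cell leukemia, and MEF2A is broadly expressed.

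The DNA at 5 annotated transcript starts is shown because these starts carry the contrasts described below. Each line gives 250 bases before and 50 bases from the start, read 5′ to 3′ on the gene's strand, from RefSeq on GRCh38.p14. Capitals mark bases inside a peak after SNDX-50469 treatment, and all 5 stretches lay wholly inside a control peak.
MEF2D start 1 (chr1:156490638-156490937, minus strand): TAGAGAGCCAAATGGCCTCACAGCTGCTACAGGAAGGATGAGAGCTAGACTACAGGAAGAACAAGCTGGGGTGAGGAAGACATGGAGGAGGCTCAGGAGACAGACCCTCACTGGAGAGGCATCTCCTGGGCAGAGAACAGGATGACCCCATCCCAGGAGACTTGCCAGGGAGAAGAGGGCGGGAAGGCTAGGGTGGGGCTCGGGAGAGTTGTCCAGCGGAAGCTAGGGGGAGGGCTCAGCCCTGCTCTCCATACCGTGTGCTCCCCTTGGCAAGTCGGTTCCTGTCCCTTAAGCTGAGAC
MEF2C start 2 (chr5:88884487-88884786, minus strand): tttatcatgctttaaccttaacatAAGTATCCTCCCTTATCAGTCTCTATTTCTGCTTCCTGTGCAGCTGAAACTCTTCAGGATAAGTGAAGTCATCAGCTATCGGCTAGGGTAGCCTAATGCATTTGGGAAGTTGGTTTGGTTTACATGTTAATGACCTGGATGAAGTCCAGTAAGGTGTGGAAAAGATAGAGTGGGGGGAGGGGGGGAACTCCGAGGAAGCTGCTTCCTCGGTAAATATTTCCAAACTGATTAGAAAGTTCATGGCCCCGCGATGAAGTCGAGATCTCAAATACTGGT
MEF2C start 3 (chr5:88883135-88883434, minus strand): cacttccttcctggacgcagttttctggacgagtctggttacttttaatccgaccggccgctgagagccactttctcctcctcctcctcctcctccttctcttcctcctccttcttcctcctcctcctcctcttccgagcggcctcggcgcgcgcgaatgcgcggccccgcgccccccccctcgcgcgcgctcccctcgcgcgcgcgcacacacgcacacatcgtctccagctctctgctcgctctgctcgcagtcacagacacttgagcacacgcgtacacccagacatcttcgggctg
MEF2C start 7 (chr5:88785462-88785761, minus strand): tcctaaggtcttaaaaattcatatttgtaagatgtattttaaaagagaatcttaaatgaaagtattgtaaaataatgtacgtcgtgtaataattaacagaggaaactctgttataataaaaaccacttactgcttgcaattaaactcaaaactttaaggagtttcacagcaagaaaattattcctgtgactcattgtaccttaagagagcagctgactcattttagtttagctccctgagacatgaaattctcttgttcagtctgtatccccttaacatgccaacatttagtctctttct
MEF2A start 2 (chr15:99565734-99566033, plus strand): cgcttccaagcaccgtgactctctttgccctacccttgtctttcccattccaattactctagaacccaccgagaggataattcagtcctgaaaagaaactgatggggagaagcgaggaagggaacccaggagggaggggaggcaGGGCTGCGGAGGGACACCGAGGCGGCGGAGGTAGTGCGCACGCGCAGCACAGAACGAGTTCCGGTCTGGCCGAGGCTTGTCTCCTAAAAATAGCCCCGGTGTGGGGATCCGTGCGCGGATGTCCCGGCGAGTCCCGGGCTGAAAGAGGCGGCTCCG

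The 300 bases at the MEF2D start were all inside a peak after treatment, 276 were at MEF2C start 2 and 156 at MEF2A start 2. None were at MEF2C starts 3 and 7. The CpG-rich MEF2C start 3 has a GC content of 64.7% with 32 CpG, while start 2, only 1352 bases away, has 44.3% with 6 CpG. Over 34943 promoter stretches of the same length the median GC content was 58.7% and the median number of CpG was 14. On either strand, 7 motifs were searched in the stretches of all 11 starts of the 3 genes: the MEF2 element, the AP-1 site TGACTCA, the GC box GGGCGG, the TATA box TATAAA, the ETS core CCGGAAG, the MEIS core TGACAG and the RUNX core TGTGGT. No matches at these starts shared a base. A MEF2 element, held by 3.0% of all promoter stretches, was found at MEF2A start 2, where CTAAAAATAG lies from −23 to −14 relative to the start and inside the peak that was called after treatment. The other MEF2 element, TTATTTTTAA from −175 to −166, lies at MEF2C start 5, outside any such peak. MEF2C start 7 holds 2 AP-1 sites, at −64 to −58 and at −37 to −31, a motif present in 4.96% of the stretches. Of the GC box, in 44.9% of the stretches, there were 7 matches at MEF2A start 1, 4 at MEF2A start 3 and 1 at the MEF2D start. The MEIS core, in 15.8%, was at MEF2C starts 1, 4 and 5. No start held the letters of the TATA box, the ETS core or the RUNX core. A match describes these letters only, and binding of the factors was not measured.

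H3K27Ac-covered length was shorter after SNDX-50469 treatment at each of the 3 genes, and the remainder differed widely between them. With 5 kb on both sides, MEF2C had the longest covered length in control cells and kept 6.46% of it. MEF2D kept 42.2%, mainly as a single broad peak over its promoter. MEF2A had the shortest covered length in control and kept 7.89%, all of it within 2 kb of its starts. Here the kept share is, in percent, how much of the control-covered length peaks still covered after treatment. A shorter length was not particular to the MEF2 genes. At most 50% of the control length was covered after treatment at all 3 of them, and likewise at 93.7% of 15634 protein-coding genes that had a control peak. The median kept share of those genes was 2.37% (quartiles 0 and 15.3%), and 44.8% of them kept nothing, which was the case for none of the 3.

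**Figure D1:**
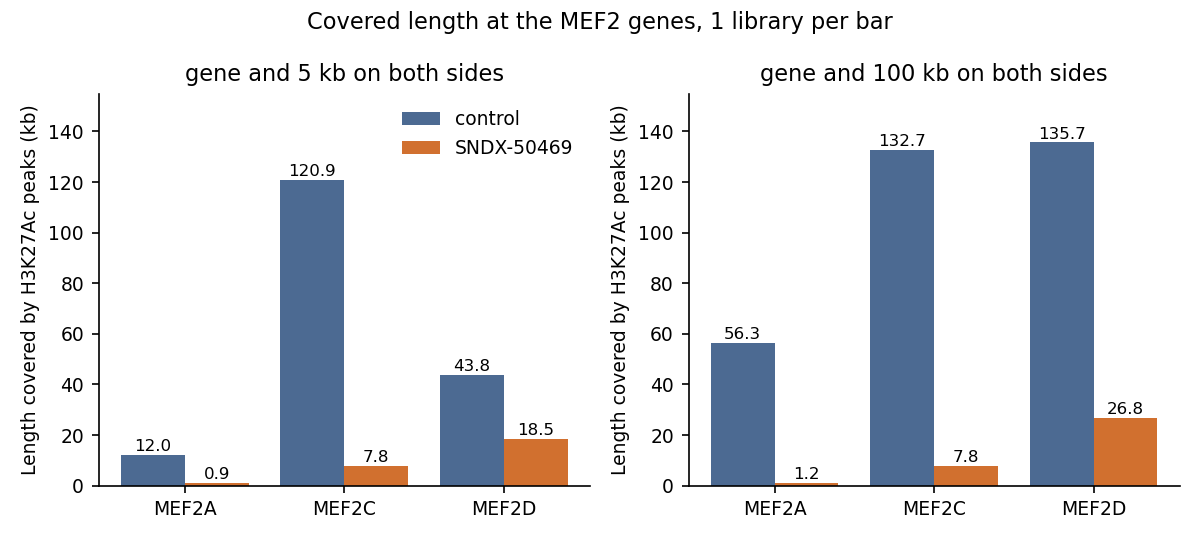
Length covered by H3K27Ac peaks (kb) at MEF2A, MEF2C and MEF2D in the control library and the SNDX-50469 library, over the gene with 5 kb on both sides (left) and with 100 kb on both sides (right); each bar is 1 library. With 5 kb, MEF2D had the longest covered length after treatment (18.5 kb) although MEF2C had the longest in control (120.9 kb).

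MEF2C lies on chromosome 5 from 88717117 to 88904105 and is read from right to left. Its 53 control peaks covered 61.4% of the gene with 5 kb on both sides, and the 11 peaks of the SNDX-50469 list covered 3.96%. All 11 lay inside 3 of the control peaks, which is 5.66% of them (95% interval by Wilson's method 1.94 to 15.4, which covers counting error only). Those 3 peaks measured 52751 bp together and were the strongest at the gene, with the authors' fold over background between 5.70 and 8.37. The other 50 control peaks covered 68121 bp, had a fold of at most 3.87, and shared no position with the SNDX-50469 list. Only 13 of the 53 control peaks, with 91689 bp, reached a −log10 p of 3.93, the smallest in the SNDX-50469 list. They included the 3 shared peaks, and the rest of the 53 lay below the level at which that list ends.

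The strongest control peak of MEF2C, from 88879286 to 88894166, spanned 14881 bp around starts 2 and 3. Following SNDX-50469 treatment, 5 separate peaks of 251 to 811 bp lay within it and covered 20.0% of its length. The widest of these sat over start 2. The broadest control peak, from 88803971 to 88835546, measured 31576 bp and held starts 4, 5 and 6. Within it, 4 peaks covered 9.25% after treatment, of which the widest, from 88824650 to 88827094 with 2445 bp, lay between start 4 and start 5 and over neither. The third control peak, from 88729941 to 88736234, lies 49277 bp beyond the last annotated start, toward the 3′ end of the gene, and 30.3% of its 6294 bp was covered after treatment by peaks of 1541 and 364 bp. Control peaks of 9822, 7703 and 5168 bp over the rest of the gene had no counterpart.

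**Figure D2:**
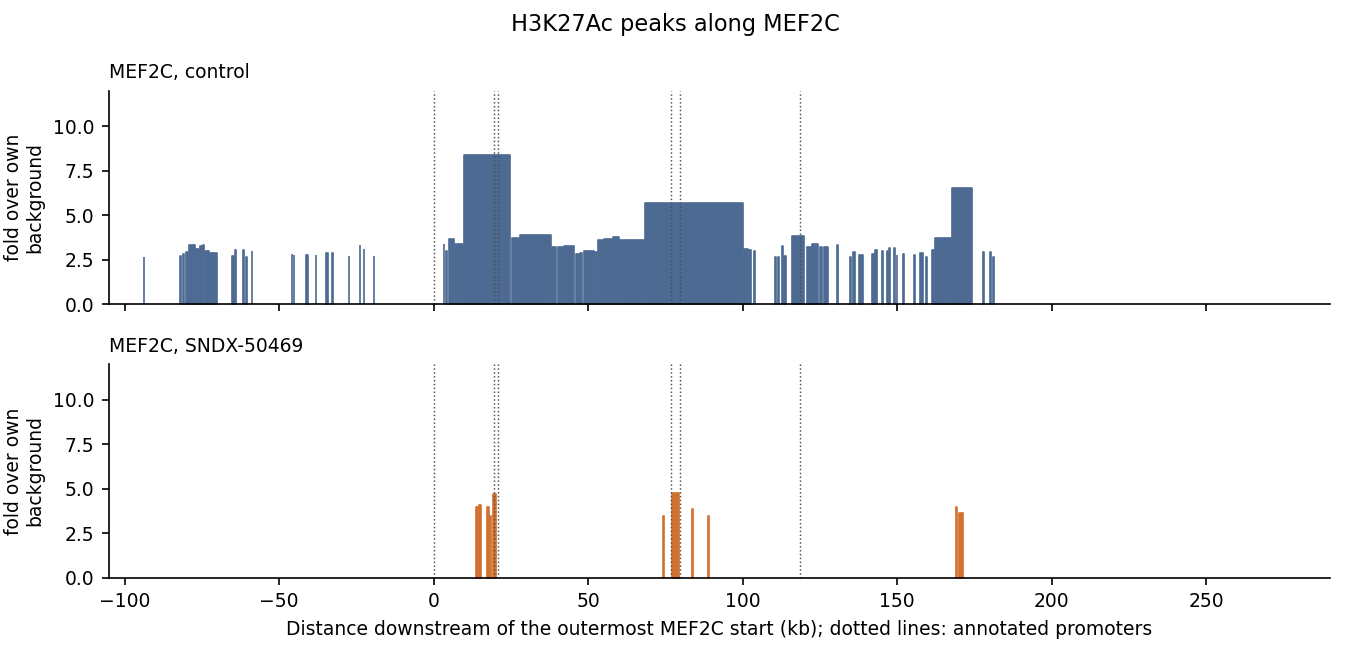
H3K27Ac peaks along MEF2C in control (top) and after SNDX-50469 treatment (bottom), by distance downstream of the outermost start (kb). Bar width is the peak and bar height is the authors' fold over the background of the same library, which is not scaled between libraries; dotted lines mark the 6 promoters. The 11 peaks after treatment fall within the 3 strongest control peaks.

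The 7 annotated starts of MEF2C make up 6 promoters when starts within 500 bp are joined, numbered here from the 5′ end. Promoter 1, at 88904105, had no peak within 2 kb in either library. Promoter 2, at 88884536 and 19.569 kb downstream, was covered over all of the 4001 bp of its window in control and over 1398 bp after treatment, a kept share of 34.9%, and it was the only MEF2C promoter whose start itself lay in a peak after treatment. At promoter 3, at 88883184, 811 of 4001 bp were kept (20.3%), all within the peak over start 2, since the windows of these neighbours overlap. MEF2C-AS1, a long noncoding RNA gene of the opposite strand, begins at 88883330 between them, and peaks in this interval cannot be assigned to either gene.

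Promoters 4 and 5 of MEF2C lie within the gene. Promoter 4, at 88827192 and 76.913 kb from the outermost start, kept 1903 of 4001 bp (47.6%), the highest share among the MEF2C promoters, yet its start lay 98 bp outside the nearest peak. Promoter 5, with starts at 88824344 and 88823927, kept 1695 of 4418 bp (38.4%), from the same 2445 bp peak. Promoter 6, at 88785511 and 118.594 kb from the outermost start, had 3350 bp in control and none after treatment. Thus acetylation at the innermost promoter was no longer called, while the pair of promoters upstream of it retained a part.

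**Figure D3:**
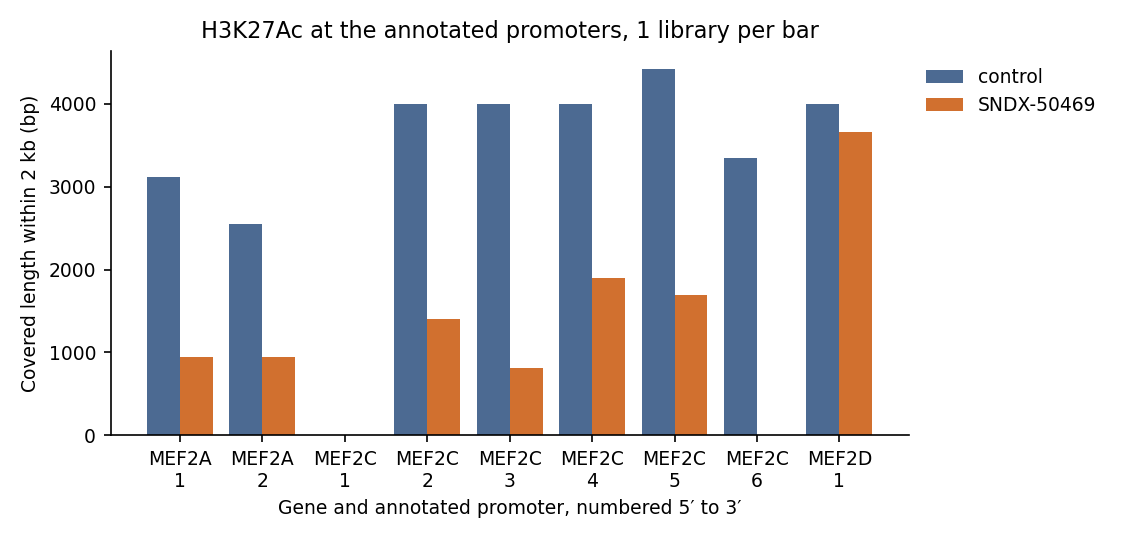
Length covered by H3K27Ac peaks (bp) within 2 kb of each annotated promoter of MEF2A, MEF2C and MEF2D, numbered 5′ to 3′, in the control and the SNDX-50469 library; each bar is 1 library. MEF2D stands at 4001 and 3653 bp, MEF2C promoter 1 has no peak in either library, and MEF2C promoter 6 has 3350 bp in control alone.

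Among all protein-coding genes, the starts that lay in a control peak also lay in a peak of the SNDX-50469 list in 41.1% of 9202 cases, and 50.6% of 14110 starts with control acetylation within 2 kb kept some of it. For the MEF2 genes, 10 of 11 starts lay in a control peak, beside 9202 of 22183 starts of all protein-coding genes. Of the 10 MEF2 starts, 3 lay in a peak after treatment (30%), 1 at each gene. Some control length within 2 kb was kept at 9 of 10 starts (90.0%). Starts of 1 gene share peaks and do not count as independent observations.

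Positions near the starts kept more than the rest at each gene, a contrast that was not computed for other genes. Around 14110 single starts of protein-coding genes, the median kept share within 2 kb was 3.36% (quartiles 0 and 39.1%). At MEF2C 24.1% of 15969 bp within 2 kb of a start was kept, against 3.78% of 104903 bp elsewhere. MEF2A kept 30.5% of 3112 bp near its starts and none of 8906 bp elsewhere. Away from its starts, only a 78 bp control peak of MEF2A reached a −log10 p of 3.93, the smallest in the SNDX-50469 list. Nearly all of the 8906 bp could not have been listed after treatment at the same score. The contrast at MEF2A therefore cannot be told apart from the unequal cutoffs. MEF2D kept 91.3% of 4001 bp near its listed start and 37.3% of 39816 bp elsewhere. The annotated 5′ end of MEF2D, 10.1 kb upstream of that start and inside a peak of each library, counts as elsewhere here. By length, though, 3965 of the 7808 bp covered at MEF2C after treatment lay away from every annotated start.

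MEF2D lies on chromosome 1 from 156463727 to 156500775, also read from right to left, and 9 control peaks covered 93.1% of the gene with 5 kb on both sides. After treatment 8 peaks covered 39.3%. Of the control peaks 4 were kept, or 44.4% (Wilson 95% interval 18.9 to 73.3). Among them, the peak from 156458205 to 156458941 crosses the edge of the window. The 153 bp it shared with the SNDX-50469 list lay outside the window. Control acetylation was dominated by a peak of 35472 bp, from 156478873 to 156514344. It ran from 23.7 kb upstream of the 1 listed start to 11.8 kb downstream. With a fold of 11.2 it ranked 137 of the 245875 control peaks by fold and 71 by width. In the SNDX-50469 list the peak over the start ran from 156489035 to 156506490 with 17456 bp and a fold of 8.17, rank 91 of 54061 peaks by fold and rank 15 by width. Ranks within lists of different size are not on a common scale.

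The table of starts lists 1 start of MEF2D, at 156490687, while the annotated gene reaches 10.1 kb further upstream, to 156500775, and both positions lay inside the broad peak of each library. The window of the listed MEF2D start thus stayed covered over 3653 of 4001 bp, and within 1 kb of the start over all 2001 bp. What was lost at this gene lay on its edges and downstream. The retained peak reached 15.8 kb upstream of the listed start and 1.65 kb downstream of it. The annotated 5′ end, 10.1 kb upstream of that start, lay inside this peak, so part of its upstream reach lies within the gene. Downstream of the listed start, 7 short peaks of 101 to 453 bp were scattered over the gene body. Of the broad control peak, 56.3% was covered. The 5 control peaks at MEF2D without a counterpart, with widths of up to 3953 bp, all lay in the 3′ part of the gene or beyond it.

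MEF2A lies on chromosome 15 from 99565417 to 99716488 and is read from left to right. Control peaks covered only 7.46% of the gene with 5 kb on both sides, in 23 peaks, and 4 peaks covered 0.589% after treatment. Of the control peaks, 2 were kept, or 8.70% (2.42 to 26.8). The strongest control peak, from 99565063 to 99566983 with 1921 bp and a fold of 5.56, held all 3 annotated starts, and 684 bp of it, or 35.6%, was covered after treatment. The 3 peaks within it measured 316, 194 and 174 bp. The first ended 14 bp before start 1, and the peak of 194 bp lay over start 2, the stretch with the MEF2 element. Its fold was 3.82. The other 3 peaks at MEF2A had the lowest fold of the SNDX-50469 list, 3.46, a value shared by 23.3% of that list, so that most of the remaining peaks at MEF2A were at the limit of calling. The 21 control peaks without a counterpart were short, with a median of 360 bp, and none had a fold above 3.65. Only 1 of them, of 78 bp, reached a −log10 p of 3.93, the smallest in the SNDX-50469 list.

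**Figure D4:**
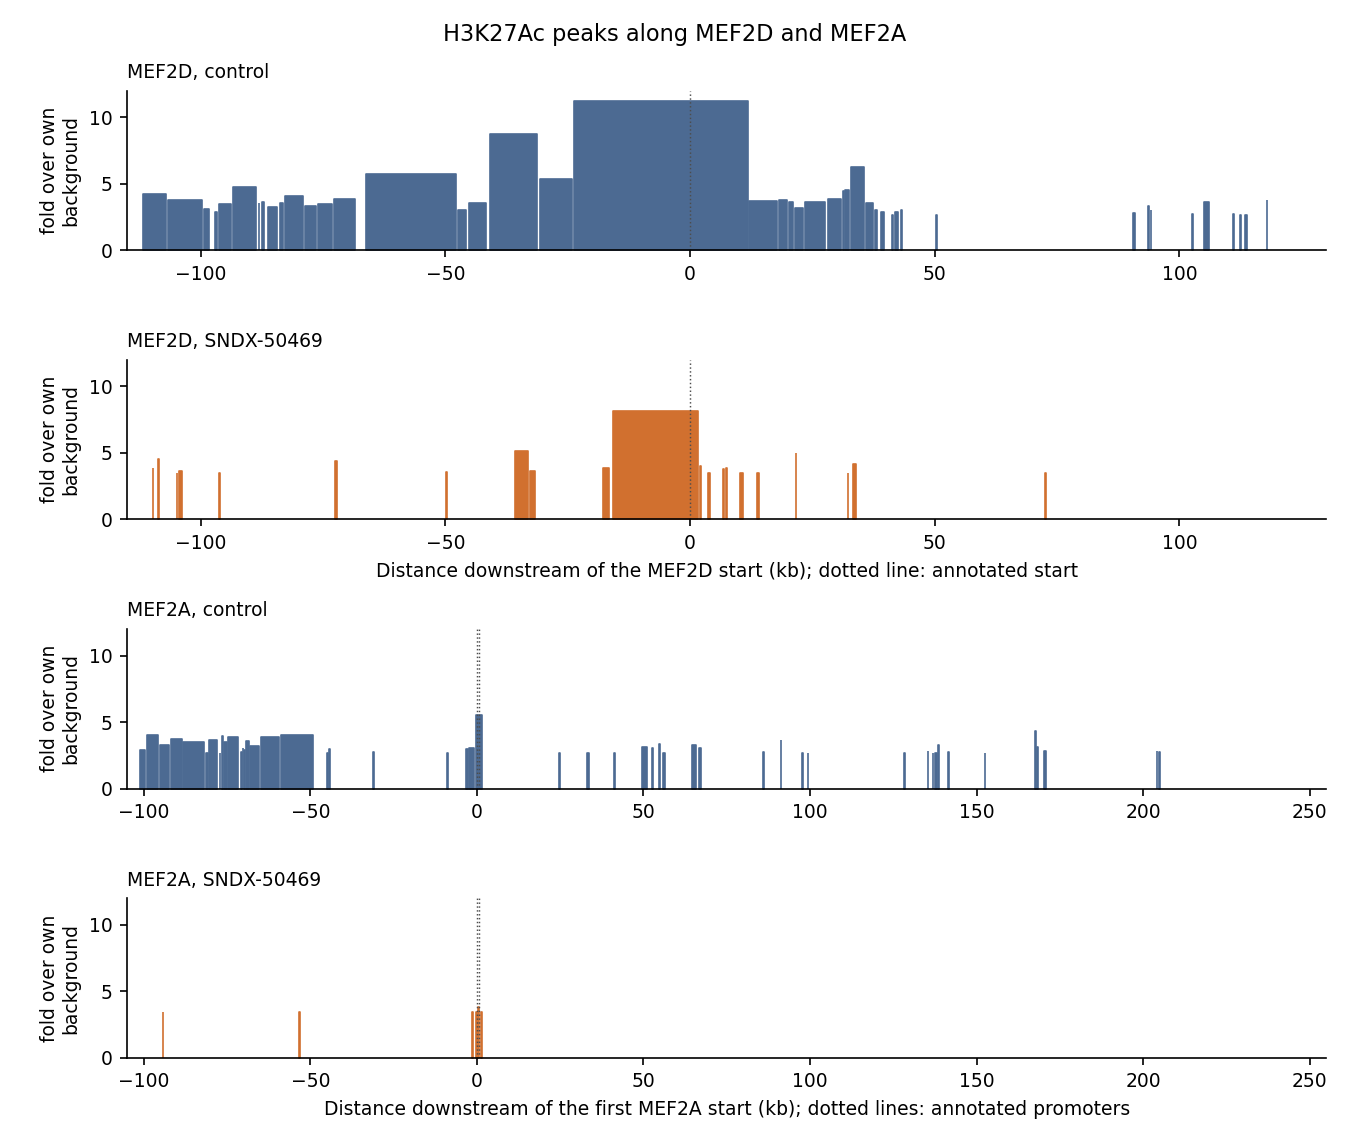
H3K27Ac peaks along MEF2D (upper panels) and MEF2A (lower panels) in control and after SNDX-50469 treatment, by distance downstream of the first start (kb). Bar width is the peak and bar height is the authors' fold over the background of the same library, not scaled between libraries; dotted lines mark annotated starts or promoters. MEF2D keeps a peak of 17456 bp over its start, while MEF2A keeps peaks of 174 to 316 bp.

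With 100 kb on both sides, 96.4% of 18602 genes had at most 50% of the control length covered after treatment and 22.3% kept nothing. The 3 genes had at most 50%, and each kept some. The kept shares were 5.89% at MEF2C, 19.5% at MEF2D and 2.21% at MEF2A, beside a median of 6.76% over all genes. Among genes with 0.5 to 2 times the control length of each, the medians were 11.1% for MEF2C (quartiles 6.23 and 17.6%), 11.2% for MEF2D (6.30 and 17.8%) and 9.06% for MEF2A (4.61 and 14.8%). In this wider window MEF2C and MEF2A lay below the lower quartile of their groups and MEF2D above the upper. Wilson 95% intervals for the share of control peaks kept were 1.32 to 10.7% at MEF2C (3 of 78 peaks), 14.2 to 38.7% at MEF2D (11 of 45) and 3.15 to 18.8% at MEF2A (4 of 50). Neighbouring peaks of 1 locus in 1 library are not independent, so these intervals do not test a difference between the genes.

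The flanks differed among the 3 genes. Upstream of MEF2A, between 5 and 100 kb from the gene, 22 control peaks covered 42464 bp, more than 3 times the length at the gene itself, and 298 bp was kept (0.702%). Downstream 1801 bp was covered in control and none after treatment. At MEF2C acetylation lay mostly within the gene. The upstream flank had 25 short peaks with 11800 bp, none of which was kept, and the downstream flank had no peak in either library. All 25 had a −log10 p of at most 3.84, below 3.93, the smallest value in the SNDX-50469 list. A peak of such a score could not have been listed after treatment. Upstream of MEF2D 82736 bp was covered in control and 7194 bp was kept (8.70%), and downstream 718 of 9126 bp was kept (7.87%).

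Protein-coding neighbours lie in these flanks. IQGAP3, which encodes a scaffold protein of the cytoskeleton and lies 24.63 kb from MEF2D, had 49661 bp covered with 5 kb on both sides and kept 8.42%. Of the further neighbours of MEF2D, GPATCH4 kept 10.3% of 13665 bp, NAXE 9.16% of 9930 bp, TTC24 0.999% of 13117 bp and RHBG none of 1844 bp. LYSMD4, which overlaps the 3′ end of MEF2A, kept none of 1447 bp. MEF2D therefore had a higher kept share than any of its 5 protein-coding neighbours. No protein-coding gene other than MEF2C lies in its 100 kb window.

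Placed among the 15634 genes with a control peak, MEF2C stood at percentile 99.4 of control covered length, MEF2D at 95.8 and MEF2A at 74.2. After treatment MEF2D stood at percentile 99.3, above MEF2C at 96.4 and MEF2A at 63.6. The kept share of MEF2D was at percentile 95.3, that of MEF2A at 62.6 and that of MEF2C at 59.8. The kept share varies with covered length, so each gene was also set beside genes with 0.5 to 2 times its control covered length. There the median was 7.69% for the 368 genes like MEF2C (quartiles 3.82 and 14.1%), 6.73% for the 1680 genes like MEF2D (2.27 and 13.7%) and 8.50% for the 6020 genes like MEF2A (0.885 and 20.7%). With 5 kb on both sides, MEF2C and MEF2A lay between the quartiles of their groups and MEF2D above.

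**Figure D5:**
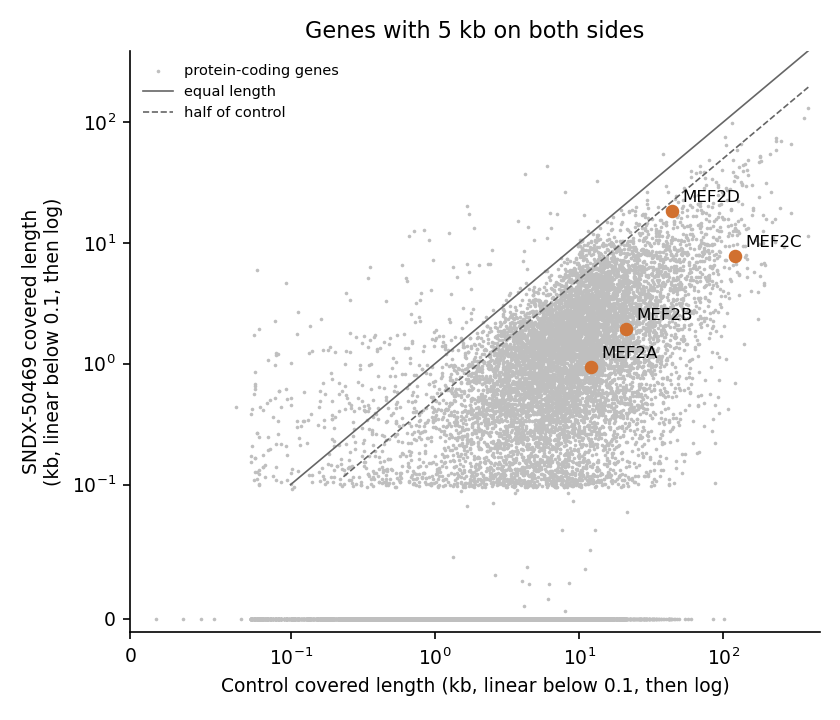
Covered length in the control library against covered length in the SNDX-50469 library (kb; each axis linear below 0.1 kb and logarithmic above) for 15634 protein-coding genes that had control peaks, over the gene with 5 kb on both sides; grey points are genes, and orange points are the MEF2 genes, MEF2B included. MEF2D lies close under the line for 50% of control, and MEF2C, MEF2A and MEF2B lie well below it.

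The genes most like each member in both lengths were found by distance on the log2 scale over the 2 libraries. For MEF2C they were SEMA4D (121187 bp in control and 7771 bp after treatment), DOCK10 (119458 and 7388 bp) and TNS3 (125841 and 7448 bp). For MEF2D they were MYB (45989 and 18944 bp), a transcription factor of blood progenitors, with CYTH4 (41105 and 19013 bp) and ATG13 (45010 and 17297 bp). For MEF2A they were SLC15A4 (11675 and 922 bp) and FBRSL1 (11592 and 927 bp).

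MEF2B, the remaining gene of the family, lies on chromosome 19 from 19145567 to 19170263. Its 22 control peaks covered 21275 bp with 5 kb on both sides and 4 peaks covered 1946 bp after treatment, with 8.94% kept. Over the gene body alone 14967 bp fell to 244 bp (1.63%).

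The acetylation of genes whose products act on MEF2 proteins was counted in 26 genes with 5 kb on both sides. Of these, 25 had a control peak, all 25 had at most 50% of the control length covered after treatment, and 4 kept nothing. Over all genes with a control peak these shares were 93.7% and 44.8%. The median kept share of the list was 4.73%, beside 2.37% over all genes and 8.0% over genes with at least 10 kb covered in control. The listed genes were long in control, with a median of 27148.5 bp against 5834.5 bp over all genes. Among the repressors, HDAC4 had the longest control length of the list, 145155 bp, and kept 4.73%. HDAC9 kept 0.122% of 119668 bp, HDAC5 1.05% of 41205 bp, CABIN1 1.49% of 38394 bp and HDAC7, the class IIa deacetylase of lymphoid and endothelial cells, 17.1% of 35574 bp. These repressors thus spanned more than 2 orders of magnitude in kept share.

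Kinases that act on class IIa deacetylases or on MEF2C were also uneven. SIK3, a salt-inducible kinase, kept 7.96% of 59438 bp, and STK11, the kinase upstream of SIK and MARK kinases, 17.8% of 15925 bp. MARK3 kept none of 28085 bp and SIK2 none of 2487 bp, although 121 bp was covered at SIK2 after treatment, outside its control peaks. MARK2 kept 1.74% of 34512 bp, and SIK1 had no peak in either library. Of the activating kinases and calcineurin subunits, MAPK14 (p38α) kept 7.13% of 46678 bp, PRKD2 25.7% of 9986 bp and CAMK4 none of 2792 bp. The highest share of the list, 30.9% of 5823 bp, was at PPP3CB, a catalytic subunit of calcineurin. The acetyltransferase gene EP300 kept 17.8% of 12320 bp and its relative CREBBP 4.54% of 19485 bp, while KAT2B, also an acetyltransferase gene, kept none of 2990 bp. After treatment 208 bp was covered at KAT2B, outside its control peaks. NFATC3, a partner of MEF2 in calcium signaling, kept 29.6% of 16938 bp.

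Of 9 genes described as MEF2 targets, all 9 had a control peak and at most 50% of the control length covered after treatment, and 6 kept nothing, with a median of 0, beside 93.7% and 44.8% over all genes with a control peak. The median control length of these 9 was 5032 bp. NR4A1, an orphan nuclear receptor of the immediate-early response, went from 14608 bp to none, and KLF2, a Krüppel-like factor, from 10653 bp to none. JUN had the shortest control length, 441 bp, and none after treatment. KLF4, RAG1 and BMP2 were the others that kept nothing, of 3876, 2649 and 2605 bp. CD14, a monocyte surface protein, kept 2.9% of 5032 bp. IL7R, the receptor chain for interleukin-7, kept the highest share, 37.7% of 17597 bp. HDAC9 is in both lists. Whether MEF2 proteins bind these genes in MOLM13 cells was not measured.

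The labelled cell type was checked at marker genes, of which those of other cell types also had control peaks. Over all protein-coding genes, 15634 of 20037 had a control peak with 5 kb on both sides. All 11 myeloid and AML markers had a control peak and 10 had a peak after treatment, with 358852 and 62222 bp in sum. Of the 11, 8 had at most 50% of the control length covered after treatment, beside 93.7% over all genes. HOXA9 kept 86.9%, CEBPA 68.1%, MPO 63.4%, SPI1 39.1%, CEBPE 35.4% and FLT3 18.5%, the last also being the median of the 11. CSF1R kept 6.36%, LYZ 4.49%, CD33 3.93% and MEIS1 3.19%, while ITGAM had no peak after treatment. Of the muscle markers 3 of 4 had control peaks, with 9722 bp in sum, of which MYOG held 8993 bp. None had a peak after treatment, and MYH7 was at 0 in both lists. The neuronal markers had 4166 and 464 bp, with none of the control length kept and RBFOX3 at 0 in both lists. The T cell markers had 27549 bp in control and none after treatment. The B cell markers had 26780 and 6445 bp, of which CD79A held 12129 and 5718 bp. The erythroid markers had 10984 and 3293 bp, with peaks at GATA1 and KLF1 alone.

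The control list holds 245875 peaks that cover 224 Mb and the SNDX-50469 list 54061 peaks that cover 29.4 Mb, and they end at different levels, the smallest −log10 p being 2.68 and 3.93. The files give no read totals, so depth is unknown. With the cutoff of 3.93 applied to both lists, the kept shares were 8.52% at MEF2C, 43.7% at MEF2D and 34.2% at MEF2A. Control peaks that remained numbered 13 at MEF2C, 8 at MEF2D and 2 at MEF2A. At a −log10 q of at least 5 none of the control length of MEF2C and MEF2A was kept, while MEF2D kept 62.2%. The highest −log10 q after treatment was 3.48 at MEF2C and 1.89 at MEF2A, so no treated peak there could pass. Such cutoffs set 1 score level on 2 lists of unknown depth.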

How the data were processed

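H3K27Ac ChIPmentation libraries of MOLM13 cells were grouped by their labels into 1 control and 1 SNDX-50469 library; 2 input libraries were not analysed here. The submitters' processing notes name Trim Galore 0.6.5, Bowtie2 2.3.4.2, Picard 2.9.0, MACS2 2.1.2 and GRCh38, whereas the supplementary methods name TopHat2, hg38, diffReps and ROSE. Calling options and the use of input are not given in the sources used here. The authors deposited a broad peak list per library, called separately, with a score, a ratio (fold over background), and −log10 p and −log10 q. These values are relative to each library's own background, so only positions were compared between lists, apart from score cutoffs used as alternative settings. Narrow changes within a called peak are not seen this way.

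Overlaps were computed with Python 3.11.15, numpy 2.4.6, pandas 2.3.3 and scipy 1.17.1, and the overlap code was tested on simulated peaks. Control peaks overlapping the SNDX-50469 list by 1 bp or more were counted as kept. Gene positions and transcript starts come from RefSeq GRCh38.p14 tables; 22183 starts of 15843 protein-coding genes entered the background. All named genes come from the members, MEF2B, protein-coding neighbours within 100 kb, the 3 genes most alike in length (1 of those for MEF2A is not reported here), and lists of regulators, targets and markers. From the lists of regulators and targets, genes with the longest and shortest control length and the highest and lowest kept share were named, with others added for their role after values were seen. The members and lists were chosen with earlier results of these data known. No p-value is given with 1 library per condition.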

Additional observations from a re-analysis of the deposited data

How the results depend on the processing

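No paired analysis was possible because there was only 1 library of either condition. MEF2D had the highest kept share in all 11 settings, the reported one included, although MEF2A had no control peak left in 1 of them, and MEF2A stood above MEF2C in 3. Over their alternatives, the share stayed within 1.5 times the reported value in 3 of 9 for MEF2A, 7 of 10 for MEF2C and 6 of 10 for MEF2D. For MEF2A (7.89%) it was 3.90% over the gene body alone, 2.21% with 100 kb on both sides, 34.2% with the common smallest −log10 p, and 0% with −log10 q at 2 or above, with −log10 q at 5 or above, and when a control peak counted only if at least 50% of it was covered. For MEF2C (6.46%) it was 23.1% with the control list trimmed to the total length of the other list, and 0% at a −log10 q of at least 5 and with the 50% rule. For MEF2D (42.2%) it was 27% with 50 kb and 19.5% with 100 kb on both sides, 67.2% with the trimmed list and 11.1% with the 50% rule. The median over all genes (2.37%) was 8.0% among genes with at least 10 kb covered in control. MEF2C promoters 2 to 5 kept 0% at a −log10 q of at least 5. After treatment no peak at MEF2A reached a −log10 q of 2 and none at MEF2C reached 5. With 1 kb around the start, promoter 3 kept 11.6%, and with 5 kb promoters 4 and 5 kept 25.5% and 25.3%. The causes were not tested. The trimmed list gave no value for MEF2A, and predicted transcript models were not run, since the start table used here does not mark them.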

Other observations

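The host genes of the microRNA miR-9 lie beside 2 of the MEF2 genes, and these values were chosen after they were seen. Beside MEF2C, MIR9-2HG and MIR9-2 had no H3K27Ac peak in either library with 5 kb on both sides. Beside MEF2D, MIR9-1HG had 280 bp covered in control, none of which was kept, and a single peak of 344 bp (chr1:156417869-156418212) after treatment that lay outside all control peaks. It had the lowest fold of the SNDX-50469 list, 3.46, and was the only peak within 100 kb of the 3 MEF2 genes that was called after treatment and not in control.

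MEF2C-AS1, the long noncoding RNA gene that begins near MEF2C start 3 and is read from the opposite strand, had 34332 bp covered in control with 5 kb on both sides and 3216 bp after treatment, with 8.69% kept. All of the kept length lay in the peak that it shares with MEF2C. MEF2C-AS2, which overlaps the 3′ end of MEF2C, had 1009 bp in control and none after treatment.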
